A study of Mus musculus with 31 samples.

Results

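Livers of old Ames dwarf mice were compared with livers of young ones: 5 arrays at 22 months against 5 at 4 months, 10 of the 31 arrays of the study, chosen by the genotype and age in their titles. Ames dwarf mice are homozygous mutants of Prop-1, a transcription factor that the pituitary needs to form the cells that make growth hormone, prolactin and thyroid-stimulating hormone. They stay small, have very little circulating insulin-like growth factor 1, and outlive wild-type mice. Both dwarf groups carry the mutation, so the comparison is one of age within the mutant. Wild-type livers at 22 months (6 arrays) and 4 months (5 arrays), and dwarf livers at 10 months (5 arrays), were set beside it. Each array held RNA of 1 snap-frozen liver by the animal names in the titles, with no agent or diet named. Growth hormone acts on the liver through its receptor, the kinase JAK2 and the transcription factor STAT5, and drives Igf1, Igfals and, in male mice, the major urinary proteins. Thyroid hormone acts beside it on lipid and mitochondrial genes. With age, the mouse liver is known for a gain of inflammatory and acute phase transcripts.

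Signal was the brightness of a probe set on an arbitrary linear scale, and 15421 genes were tested. A log2 difference below is the mean of log2(signal + 16) at 22 months minus that at 4 months, which understates the change of dim genes. Adjusted p is from limma with Benjamini-Hochberg adjustment across the genes tested, and 0.05 was the threshold. The median signal of the 10 arrays ran from 181.2 to 209.6, and the number of arrays limits the precision. Liver transcripts were bright, with Alb at 66140 ± 5528 at 4 months (SD, n = 5). Igf1 separated the genotypes, whose signal at 4 months was 2011 ± 471 in dwarf and 18222 ± 2704 in wild-type liver (SD over 5 arrays each). Some arrays stood apart. On dwarf 22 months replicate 1 the signal of Xist, the transcript of the inactive X chromosome, was 8414, against at most 132 on the other 9 arrays, and that of the Y-linked gene Eif2s3y was 21.6, against 588 to 1031. The labels give no sex, batch or time of day, so results are given with and without this array where it matters. Xist was also high on wild type 22 months replicate 2 (8167), and on dwarf 10 months replicates 1 (5582) and 4 (7336). Eif2s3y was low on wild type 22 months replicate 2 (5.55) and dwarf 10 months replicate 4 (44.3), but 708 on dwarf 10 months replicate 1. The p-values measure the spread between these animals.

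From 4 to 22 months Wfdc21, Mup10, Lcn2, Nat8, Igf1 and Igfals rose in dwarf liver, and Lpl, Pparg and 17 of 55 genes of oxidative phosphorylation fell. In all 185 of 15421 genes passed, 1.2% of those tested, with 87 higher (0.564%) and 98 lower (0.635%). The rises were larger: their median was 0.97 log2, against -0.52 for the falls, and 42 of the 49 genes that changed 2-fold or more were higher. The 5 arrays of each age did not overlap for 65 of the 87 and 86 of the 98 genes, where 3.4% of all genes did not overlap (1.26% higher, 2.13% lower). The 10-month mean lay between the means at 4 and 22 months for 79 of the 87 and 94 of the 98 genes. These genes were chosen for distant means at 4 and 22 months, which by itself favours a mean between them. The share over all genes was not counted, so no gradual change is read from these counts. Against 4 months, 1 gene had passed at 10 months, and from 10 to 22 months 12 passed, 11 of them higher. These last comparisons share arrays with the main one. Without dwarf 22 months replicate 1, the count was 76 higher and 61 lower, of which 63 and 48 were among the genes above. The total depended on single arrays, and was 66 without dwarf 22 months replicate 3, 78 without replicate 4, 101 without dwarf 4 months replicate 2 and 89 without replicate 5. The sign of all 185 was kept in each of these fits. Without all 4 arrays of high Xist 86 were higher and 93 lower, and 68 and 64 of these were among the genes above. Quantile normalization gave 95 higher and 42 lower (69.3% higher, against 47% here), and median centring 30 and 31.

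Igf1 and Igfals, through which growth hormone acts on growth, rose in the old dwarfs, while the receptor and signalling genes did not pass. Igf1, which encodes the main growth factor made by liver, read 1862, 2318, 2548, 1315 and 2013 at 4 months and 3048, 4293, 10820, 3250.5 and 7468 at 22 months. All 5 old livers lay above all 5 young ones, replicates 3 and 5 highest, for a rise of 1.37 log2 (SE 0.27, adjusted p = 0.00685). Igfals, the acid-labile subunit that keeps IGF-1 in the circulation, read 354, 171, 306, 374 and 374 at 4 months. At 22 months it read 645, 1049, 2252, 669.8 and 1893, again without overlap and with replicates 3 and 5 highest, a rise of 1.85 log2 (SE 0.24, adjusted p = 4.33e-05). The level stayed below that of wild type, whose mean at 22 months was 15060 ± 2559 for Igf1 and 2779 ± 403 for Igfals (SD, n = 6). At 10 months dwarf Igf1 read 1283, 868, 3586, 1746 and 1583, so 3586 lay above and 868 and 1283 below the range at 4 months. The other 3 probe sets of Igf1 rose by 1.50, 1.77 and 1.92 log2, all past the threshold. Without dwarf 22 months replicate 1 the differences were 1.55 for Igf1 and 2.06 for Igfals.

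**Figure D1:**
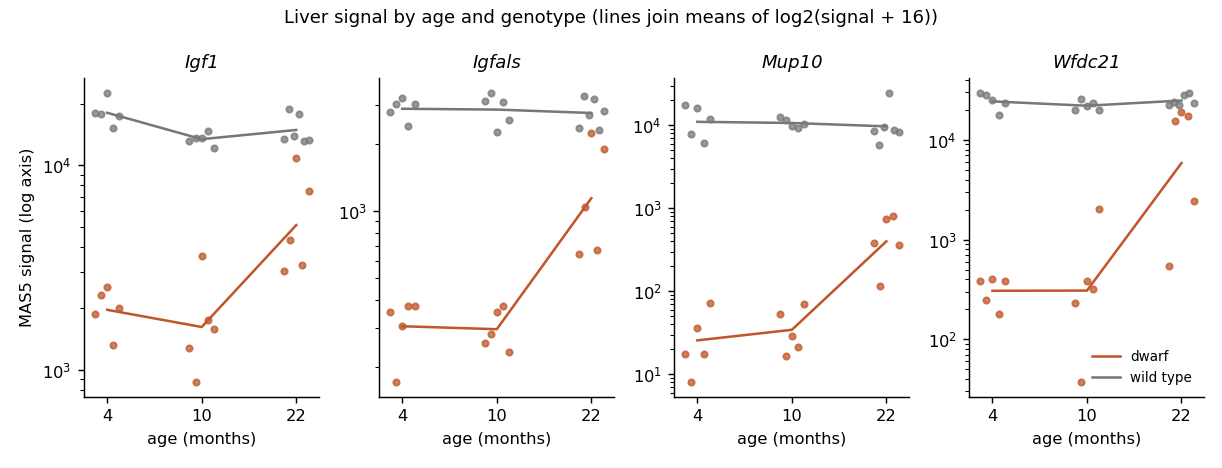
Signal of Igf1, Igfals, Mup10 and Wfdc21 (vertical log axes, MAS5 signal) at 4, 10 and 22 months in dwarf (orange) and wild-type (grey) liver, 1 point per array, with lines through the means of log2(signal + 16). Dwarf signal is low at 4 and 10 months and higher at 22 months, while the wild-type means stay near the same level. The arithmetic mean of Igf1 in dwarf is 2011 at 4 months and 5776 at 22 months.

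The 16 listed genes of the growth hormone and IGF-1 axis were all tested, and the other 14 did not pass. Ghr, the receptor, was at -0.25 log2, its kinase Jak2 at -0.08, and the transcription factors Stat5a and Stat5b at -0.11 and -0.19. The feedback inhibitors that growth hormone induces were at 0.07 for Socs2 and 0.24 for Cish. Binding proteins that restrain IGF-1 had negative values, -1.81 for Igfbp1 (adjusted p = 0.268) and -0.87 for Igfbp2 (adjusted p = 0.226). Igfbp1 is secreted in fasting and when insulin is low. It read 25668, 32129, 38230, 12544 and 27785 at 4 months and 28049, 6600.5, 2562, 10695 and 4038 at 22 months, so replicate 1, the array with high Xist, was the highest of the old livers. The median of the list was -0.15, with 11 of 16 below 0, against 0.00 over all genes.

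Of 3 tested genes of major urinary proteins, pheromone carriers that the male liver makes under pulses of growth hormone, 2 rose. Mup10 read 17.7, 7.99, 36.1, 17.7 and 71.8 at 4 months and 382, 116, 753, 816 and 357 at 22 months. Every old liver was above every young one, and the rise was 3.32 log2 (SE 0.40, adjusted p = 1.95e-05). The young values lay near background, below the 40th percentile of their arrays, which was 124.6 or more. Old replicate 2 (116) was also below that of its array (142), so the size of the rise is imprecise. Mup5 rose by 1.39 log2 (SE 0.35, adjusted p = 0.0395), and this call was lost in 13 of 24 alternatives, with adjusted p up to 0.161. Mup3 was at 0.54 (adjusted p = 0.303). Even so the Mup10 level was far from the wild-type one, 10945 ± 6835 at 22 months (SD, n = 6). That mean includes wild type 22 months replicate 2, an array of high Xist. At 10 months, where Xist was high on no wild-type array, wild type read 10750 ± 1273 (SD). The Mup genes are near-identical copies, so a probe set may read several of them. In the list of male-biased, hormone-dependent genes (17 tested) these 2 passed, both higher, and the median was 0.54 log2 with 13 of 17 above 0. Other members did not pass: the steroid-metabolising enzyme Hsd3b5 was at 0.28, the anion transporter Slco1a1 at -0.12, the elongase Elovl3 at 0.93 and the P450 Cyp2d9 at -1.16 (adjusted p = 0.32). Without the 4 arrays of high Xist the list had 3 higher and 1 lower: Cyp2d9 passed at -1.18 (adjusted p = 5.57e-05), and Nudt7, a nudix hydrolase, at 1.15 (adjusted p = 0.000359). Among 14 tested female-biased genes 0 passed limma's test (1 at an unadjusted p under 0.05), with a median of -0.03. Examples are Sult2a2 (-0.28) and Cyp2b13 (-0.11), enzymes of steroid and drug metabolism that are high in female liver.

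The estrogen receptor gene Esr1, which the liver expresses under pituitary control, rose as well. Its signal was 479, 142, 487, 143 and 438 at 4 months and 636, 1324, 1878, 1502 and 1268 at 22 months, without overlap. Replicate 1 was the lowest old liver, and the difference was 2.03 log2 (SE 0.32, adjusted p = 0.00061). Paqr9, a membrane protein of the progestin and adiponectin receptor family, read 709, 646, 531, 684 and 409 and then 1012, 2449.8, 3799, 4338 and 1273, a rise of 1.89 log2 (SE 0.36, adjusted p = 0.00504). Mme, which encodes the peptidase neprilysin, rose by 1.75 log2 (adjusted p = 9.88e-05) and Cmah, the enzyme that makes N-glycolylneuraminic acid, by 1.18 (adjusted p = 0.000687). A second probe set also rose for Paqr9 (2.03) and Mme (2.04). Of 5 further probe sets of Cmah 3 had the same sign and 1 passed, with values from -0.89 to 1.25. For Esr1 one further probe set passed (1.90) and another did not (0.92).

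Since STAT5 carries the growth hormone signal, the STAT-type element TTCNNNGAA was searched in the 250 bases before the start of each gene. Genes without a promoter sequence, and those of a chromosome that was left out, were not searched. The element reads the same on both strands. Sequences are from RefSeq with the GRCm38.p6 build. The element was in 8 of the 70 risers searched (11.4%), in 4 of 80 fallers (5%), in 907 of 12339 tested genes (7.35%) and in 7.02% of all windows searched. A match describes letters, not a bound site. Sites of 4 of the risers are shown as examples of the genes named here, with the element in capitals and the gene's strand read 5′ to 3′.
Igfals, chr17:24877598-24877626, plus strand: gatctataatTTCTCAGAAaagaggctga
Igfals, chr17:24878163-24878191, plus strand: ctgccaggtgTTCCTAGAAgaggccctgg
Esr1, chr10:4709960-4709988, plus strand: ctggagtttcTTCTAGGAAtgctgattct
Mme, chr3:63295035-63295063, plus strand: taaaggtaatTTCCATGAAatacttgcct
Ctsc, chr7:88277839-88277867, plus strand: agctttggcgTTCCTTGAAaggcagaggt
The 2 Igfals elements end 228 and 50 bases before a listed start of the gene. Those of Esr1, Mme and Ctsc end 180, 158 and 228 bases before theirs.

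The largest rise was that of Wfdc21, which encodes a small secreted protein with a WAP domain. Its signal was 381, 250, 400.2, 179.6 and 388 at 4 months and 548, 15301, 18907, 17360 and 2438 at 22 months. Replicates 2, 3 and 4 were the highest but stayed below the wild-type mean of 24986 ± 3106 (SD, n = 6). Replicate 5 was intermediate, and replicate 1 was just above the young livers. The difference was 4.19 log2 (SE 0.67, adjusted p = 0.00061), and 5.03 without replicate 1. At 10 months 1 of 5 dwarf arrays was above the range of 4 months, at 2042.

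Genes of the Nat8 family, acetyltransferases of the endoplasmic reticulum, rose together. Nat8 read 122, 187, 111, 82.2 and 131 at 4 months and 680.2, 651, 1172, 518 and 1308 at 22 months, with no overlap, a rise of 2.58 log2 (SE 0.41, adjusted p = 0.00061). Its relatives Nat8f2 (1.23, adjusted p = 0.00061) and Nat8f4 (0.65, adjusted p = 0.0152) rose too, and were chosen for mention after their values were seen. Their transcripts are alike, so probes may be shared. Olfm3, a secreted olfactomedin-family protein, read 45.2, 131, 201, 20.5 and 123 and then 389, 327, 571, 343 and 531, a rise of 2.13 log2 (SE 0.37, adjusted p = 0.00187). The remaining leaders were dim. Lrp11, of the LDL receptor-related family, rose by 1.94 from 23.2, 69.9, 47.9, 15.6 and 22 to 187, 95.8, 305, 290.1 and 81.1. The leucine-rich repeat gene Lrtm2 rose by 1.94 and the acid phosphatase gene Acpp by 1.90. These last 3 did not overlap between ages, and each missed the threshold without dwarf 22 months replicate 1 (adjusted p = 0.0506, 0.0634 and 0.0812).

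**Figure D2:**
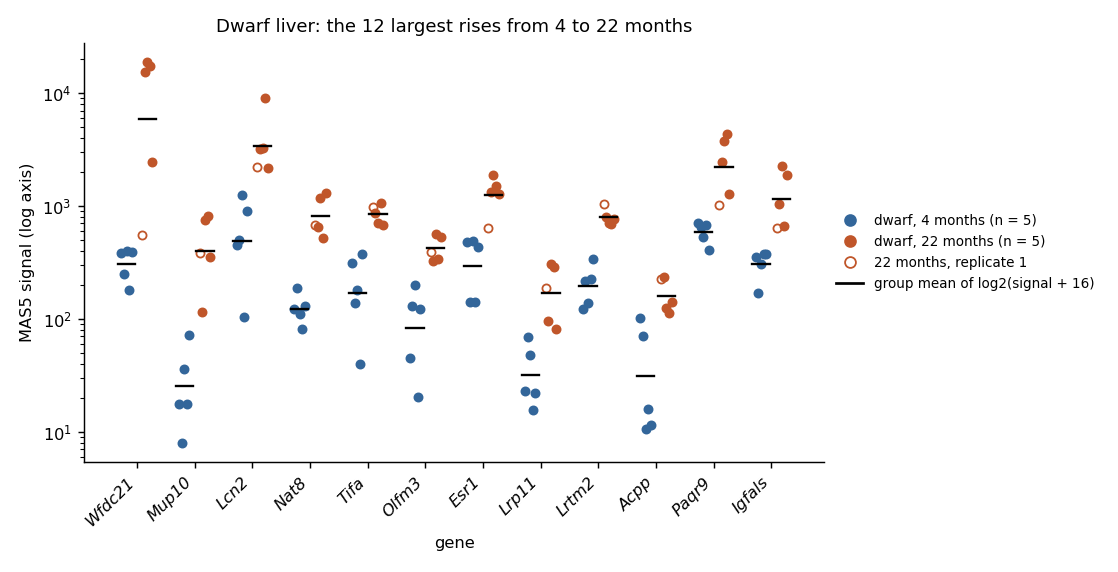
Signal (vertical log axis, MAS5 signal) of the 12 genes with the largest rises, 1 point per array, in dwarf liver at 4 months (blue) and 22 months (orange); black bars are means of log2(signal + 16) and the open point is dwarf 22 months replicate 1. The ages do not overlap for any of the 12 genes, and the open point is the lowest old liver for Wfdc21, Esr1, Paqr9 and Igfals.

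Inflammatory transcripts rose in part. Lcn2, an acute phase protein that binds bacterial siderophores, read 448, 503, 1248, 104 and 906 at 4 months and 2227, 3176, 3273, 8998 and 2179 at 22 months. Replicate 4 was far above the others, no array overlapped, and the rise was 2.75 log2 (SE 0.58, adjusted p = 0.0112). Tifa, an adaptor of NF-kB signalling, read 311, 139, 181, 40 and 373 and then 974, 858, 708, 1056 and 676, a rise of 2.21 log2 (SE 0.42, adjusted p = 0.00477). Of 25 acute phase genes 3 passed, all higher: Lcn2, the serum amyloid gene Saa3 (1.33, adjusted p = 0.00789) and Orm1 (0.77, adjusted p = 0.0204), a plasma glycoprotein. The median of the list was 0.18 log2, and 0.47 with quantile normalization, where 4 passed. Saa1 (1.20, adjusted p = 0.547) and Saa2 (0.93, adjusted p = 0.673) did not pass, and neither did the fibrinogen chains Fga (-0.38), Fgb (-0.33) and Fgg (-0.30). In wild type 8 of the 25 passed, all higher, with a median of 0.31. By limma the change itself differed between genotypes for 1 of the 25, more negative in dwarf (7 at an unadjusted p under 0.05).

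Among 31 tested interferon-stimulated genes only the GTPase gene Iigp1 passed (0.78, adjusted p = 0.0101), with 24 of 31 above 0 and a median of 0.27. Zbp1, a sensor of nucleic acids, was at 1.30 (adjusted p = 0.136) and Ifit1 at 0.87 (adjusted p = 0.259). The B cell list had a median of 0.35, with 1 of 15 past the threshold. This was Ighm, the heavy chain of IgM, at 1.52 log2 (SE 0.38, adjusted p = 0.0371), for which 1 of 10 further probe sets passed (1.56) and 5 had the opposite sign, down to -0.98. Its call was lost in 12 of 24 alternatives, and the mean of its probe sets was at 0.14 (adjusted p = 0.845). The defining B cell genes Cd79a (-0.34) and Ms4a1 (0.21) did not pass. The summed signal of that list ran from 19745 to 26522 at 4 months and from 20955 to 28307 at 22 months. Of 10 neutrophil genes Lcn2 alone passed, and S100a8 (0.10), S100a9 (-0.07) and Ltf (0.39), which mark neutrophils more narrowly, did not.

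Several further rises fell outside these groups and were chosen after their values were seen. Cathepsin C, Ctsc, which activates proteases of immune cells, rose by 1.19 log2 (adjusted p = 0.000266). Cyp26a1, which degrades retinoic acid, rose by 1.66 (adjusted p = 0.0112), and Fkbp5, a chaperone induced by glucocorticoids, by 1.03 (adjusted p = 0.00642). Glutamine synthetase, Glul, rose by 0.70 (adjusted p = 0.00239) and the ammonium transporter Rhbg by 1.07 (adjusted p = 0.0461). Both are known from hepatocytes around the central vein. Cyp2f2, known from hepatocytes around the portal vein, also rose, by 0.77 (adjusted p = 0.00107). Some other genes known from these places did not rise. Without the arrays of high Xist, Cyp2e1 and Cyp1a2, of the central vein, were at -0.38 and -0.45. In that fit Cps1 and Hal, of the portal vein, were at -0.35 each, and none of these passed. Whether genes of either place rose as a set was not tested. Other rises were those of Apoa4, an apolipoprotein, by 1.35 (adjusted p = 0.0137), the fatty acid-binding protein Fabp2 by 1.22 (adjusted p = 0.0418) and the bile acid transporter Slc10a2 by 1.63 (adjusted p = 0.0217). A second probe set of Apoa4 did not pass.

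Many of the risers had been low in dwarf liver at middle age. The 10-month arrays of both genotypes gave no mean to the comparison of 22 with 4 months. They did enter its estimate of the spread, its filter and its choice of probe sets. At 10 months 27 of the 87 risers (31.03%) were 2-fold or more below wild type. Of all genes tested 2.19% were. Only 2 of the 87 were 2-fold or more above wild type, where 2.3% of all genes were. By any amount, 75 of the 87 were below wild type, where 7128 of all 15421 genes were. The median difference of the risers from wild type was -0.62 log2, against 0.03 over all genes. For the 98 fallers, 1 was 2-fold lower and 2 were 2-fold higher, with a median of 0.17. These are counts without a test. Without the 2 dwarf arrays of high Xist at that age, 22 of the 87 risers (25.3%) and 3.05% of all genes were 2-fold or more below wild type, with a riser median of -0.61. Among the genes described above the 10-month difference, dwarf minus wild type, was -7.73 log2 for Mup10, -6.09 for Wfdc21, -3.20 for Igfals, -3.04 for Igf1, -2.78 for Paqr9 and -2.18 for Nat8. Dwarf Mup10 signal was near background at 10 months (mean 38.0), so its difference is imprecise. The 2 risers that were 2-fold or more above wild type at 10 months are Lrtm2 (3.23) and Lcn2 (1.58).

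The largest fall was that of Lpl, the lipase that frees fatty acids from circulating triglyceride and is normally low in adult liver. Its signal was 12070, 11046, 14667, 5849 and 10288 at 4 months and 4367, 1604, 1068, 1814 and 1843 at 22 months. All old livers lay below all young ones, replicate 1 highest among them, for a difference of -2.43 log2 (SE 0.39, adjusted p = 0.000687). A second probe set gave -1.62, past the threshold. Wild-type signal was 893 ± 141 at 4 months (SD, n = 5) and 915 ± 351 at 22 months (SD, n = 6), below that of dwarf at both ages. Pparg, the nuclear receptor of fat storage, fell beside it by 2.13 log2 (SE 0.46, adjusted p = 0.0131). It read 512, 507, 407, 291 and 517 at 4 months and 63.1, 50.7, 34.7, 197 and 191 at 22 months, without overlap. Pparg fell in wild type too, by 1.59 log2 (adjusted p = 0.0356). Markers of fat tissue did not pass: Adipoq was at -0.11 and Fabp4 at -0.19.

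The other leading falls had no shared function on the lists used here. Rpp21, a protein subunit of ribonuclease P, read 374, 511, 454, 280.3 and 266 and then 76.9, 50.4, 60.4, 31.2 and 112, a difference of -2.30 log2 (SE 0.36, adjusted p = 0.00061). Bhlhb9 (-1.80), Fgd1 (-1.69), an exchange factor for the small GTPase Cdc42, and Prm3 (-1.69), a protamine gene known from spermatids, followed. Ddx28 (-1.32), a mitochondrial RNA helicase, Acot2 (-0.995), a mitochondrial acyl-CoA thioesterase, and the zinc finger gene Zkscan17 (-0.95) came next. The 12 closed with Pgap2 (-0.95), which remodels membrane anchors, Eid1 (-0.93) and Coq8a (-0.93), needed to make coenzyme Q. Pgap2 read 2287, 2272, 2078, 2158 and 2252 at 4 months and 1363, 1152, 1571, 1128 and 685 at 22 months, a tight young group above a wider old one. Eid1 overlapped between the ages on 1 array, the others did not overlap. Prm3, Acot2 and Eid1 missed the threshold without dwarf 22 months replicate 1 (adjusted p = 0.0692, 0.0778 and 0.0581). Further probe sets of Acot2, Pgap2 and Coq8a had the same sign and did not pass.

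**Figure D3:**
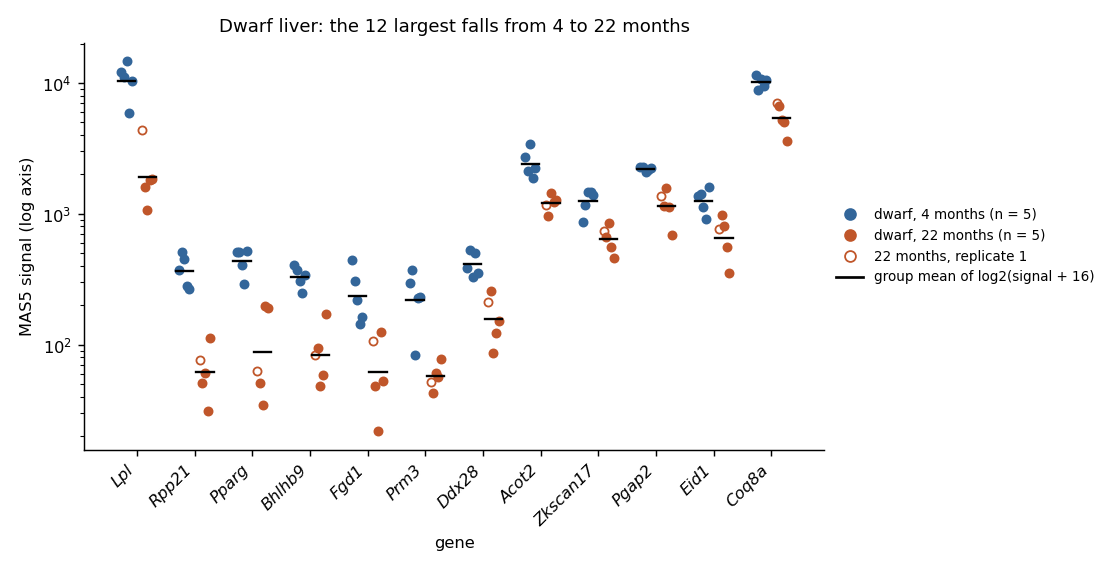
Signal (vertical log axis, MAS5 signal) of the 12 genes with the largest falls, 1 point per array, in dwarf liver at 4 months (blue) and 22 months (orange); black bars are means of log2(signal + 16) and the open point is dwarf 22 months replicate 1. The arithmetic mean of Lpl is 10784 at 4 months and 2139 at 22 months, and the ages overlap for Eid1 alone.

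Subunits of the respiratory chain were lower at 22 months almost without exception, by a small amount. Of 55 genes of oxidative phosphorylation 17 passed, all lower, and 54 of 55 were below 0, with a median of -0.38 log2. Ndufc1, of complex I, read 9548, 11935, 9545, 10856 and 11791 at 4 months and 6972, 7931, 7518, 6997 and 6948 at 22 months. The ages did not overlap, and the difference was -0.56 log2 (SE 0.10, adjusted p = 0.00412). Cox6b1 of complex IV fell by 0.55 log2 (SE 0.10, adjusted p = 0.00466), Cyc1 of complex III was at -0.48 log2 (SE 0.10, adjusted p = 0.00884) and Atp5g3 of the ATP synthase was at -0.50 log2 (SE 0.09, adjusted p = 0.0022). Of complex II none of the 4 subunits passed (Sdhc at -0.48, Sdha at -0.11). Cox7c (0.40) was the 1 gene above 0. Wild type showed a like median, -0.32, with 18 genes lower and 0 higher, and by limma the change differed between genotypes for 0 of the 55 (4 at an unadjusted p under 0.05). The TCA cycle list had 0 of 16 past limma's threshold (7 at an unadjusted p under 0.05) and a median of -0.26. Without the 4 arrays of high Xist 2 of the 16 were lower, Suclg1 (-0.55, adjusted p = 0.00596) and Idh2 (-0.59, adjusted p = 0.0174), and so was Sdhc of complex II (-0.61, adjusted p = 0.0174). Of 26 genes of fatty acid oxidation 3 fell: Acot2, the peroxisomal thiolase gene Acaa1b (-0.88, adjusted p = 0.00642) and the mitochondrial thiolase gene Acaa2 (-0.39, adjusted p = 0.0256). Their calls were lost in 14, 1 and 10 of 24 alternatives. The list median was -0.24, and 1 gene was lower with quantile normalization, with median centring or without dwarf 22 months replicate 1. Wild type had 5 of the 26 lower and a median of -0.40. By limma the change differed between genotypes for 0 of the 26.

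Ribosomal protein genes and genes of secreted liver proteins were also lower. Of 27 ribosomal protein genes 9 fell and 0 rose, among them Rplp2 (-0.57, adjusted p = 0.00466) and Rpl19 (-0.47, adjusted p = 0.0101), with a median of -0.35. Of 17 hepatocyte markers 5 fell and 0 rose, with a median of -0.41. They were Alb (-0.50, adjusted p = 0.0258), the apolipoproteins Apoc1 (-0.50) and Apoa2 (-0.48), the thyroxine carrier Ttr (-0.45) and the transcription factor gene Cebpa (-0.60, adjusted p = 0.0112). The factor gene Hnf4a was at -0.08 and did not pass. Alb read 63069, 69808, 58306, 72189 and 67329 at 4 months and 42261, 44404, 47740, 44378 and 55854 at 22 months, with no overlap.

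These small falls went with brightness. Of the 98 fallers 29 were among the 155 brightest genes (the top 1%) and 30 among the next 617, and their median signal at 4 months was 11609, against 787 for the risers. The median difference of all genes in the top 1% was -0.32 log2, and 0.02 after quantile normalization, which gives each array the same distribution of signal. Summed over the 15421 genes, signal ran from 22285000 to 23866000 at 4 months and from 20886000 to 21637000 at 22 months, on arrays scaled to one trimmed mean. With quantile normalization the median was -0.20 for oxidative phosphorylation with 5 genes lower, -0.18 for ribosomal proteins with 2 lower, and -0.005 for hepatocyte markers with 0 lower. With median centring 3, 1 and 1 of them were lower. Without dwarf 22 months replicate 1 the counts were 10, 4 and 1, and without all 4 arrays of high Xist 15, 6 and 2. Alb was at -0.07 and Apoa2 at 0.00 after quantile normalization. Lpl (-2.36), Igf1 (1.40) and Wfdc21 (4.23) kept their size under it. Whether brightness had a part in the falls was not tested.

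**Figure D4:**
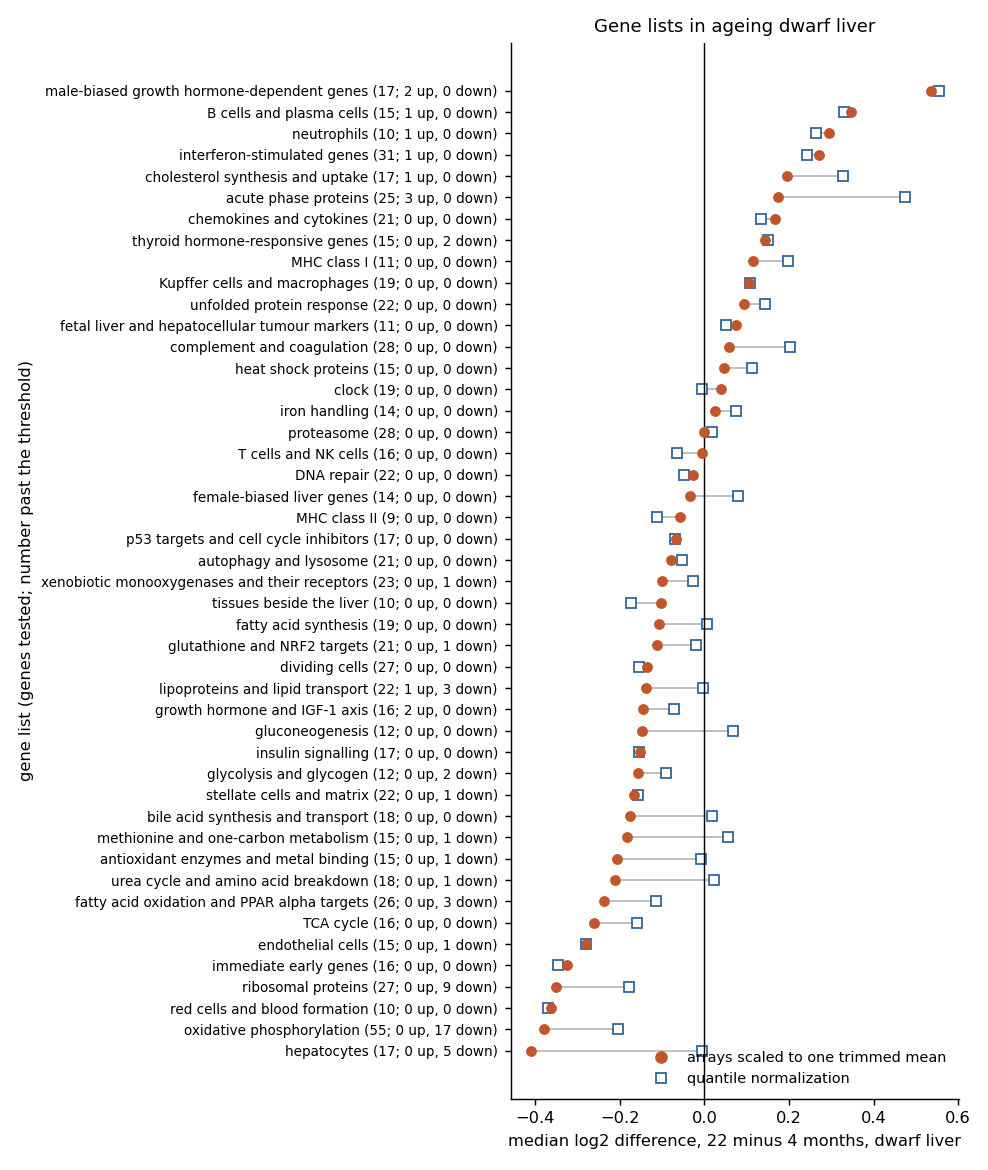
Median log2 difference, 22 minus 4 months, in dwarf liver (horizontal axis) for each gene list with 9 or more genes tested (vertical axis, with the number tested and the number past the threshold in each direction); filled circles are arrays scaled to one trimmed mean and open squares are quantile-normalized arrays. The 17 male-biased genes have the highest median, 0.54, and hepatocyte markers, at -0.41, move to near 0 after quantile normalization.

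Thyroid hormone genes, whose pituitary signal is also missing in the mutant, had a median of 0.14, with 9 of 15 above 0. Of the 15 tested 2 passed, both lower: Ttr and Thra, the gene of a thyroid hormone receptor (-0.91, adjusted p = 0.0137). A second probe set of Thra was at -0.15 and did not pass. The call was lost in 15 of 24 alternatives for Ttr, with adjusted p up to 0.968, and in 3 of 24 for Thra. Dio1, the deiodinase that makes active hormone, was at 0.06, Thrsp, a lipogenic target, at 0.72 and Me1, the malic enzyme gene, at 0.37. Dio1 in wild type fell by 1.94 log2 (adjusted p = 0.034). By limma's test of the difference, the change differed between genotypes for 0 of the 15, Dio1 included (6 at an unadjusted p under 0.05). The cholesterol list had 1 riser of 17, Sqle, the squalene epoxidase gene (1.11, adjusted p = 0.0138), with a median of 0.20. In the list of lipoproteins and lipid transport Apoa4 rose and Lpl, Apoc1 and Apoa2 fell, of 22 tested. Of genes that handle oxidants, Sod1, the cytosolic superoxide dismutase, fell by 0.86 log2 (SE 0.20, adjusted p = 0.0195), and Gstp1, a glutathione transferase, was at -0.74 log2 (SE 0.18, adjusted p = 0.0355). Without dwarf 22 months replicate 1 their adjusted p was 0.0569 and 0.0791. Over 24 alternatives the call was lost in 7 for Sod1 and in 11 for Gstp1. The 3 further probe sets of Sod1 ran from -0.75 to 0.32 and did not pass.

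Few markers of other cell types passed the test, and in bulk liver fewer cells of a type and less RNA per cell cannot be told apart. Of 15 endothelial genes 13 were below 0, with a median of -0.28, and 1 passed: Dnase1l3, a nuclease of sinusoidal cells (-0.73, adjusted p = 0.0488). The hyaluronan receptor Lyve1 was at -0.71 (adjusted p = 0.0802) and the scavenger receptors Stab1 and Stab2 at -0.40 and -0.31. Their summed signal ran from 16934 to 21826 at 4 months and from 14624 to 19698 at 22 months. Quantile normalization left the median at -0.28 and ended the call. Of 22 stellate cell and matrix genes Sparc alone passed (-0.89, adjusted p = 0.00154), where its other 2 probe sets gave -0.57 and 0.58 and did not pass. Col1a1 was at -0.84 (adjusted p = 0.514). Of 19 macrophage genes 0 passed limma's test (5 at an unadjusted p under 0.05), with a median of 0.11. For 4 of the 19 the ages did not overlap, all higher, where this held for 1.26% of all genes. Ptprc (0.64), Mpeg1 (0.48) and Cybb (0.46) are among them. Kupffer cell genes Clec4f (0.09) and Vsig4 (0.11) were near 0. The lists of T and NK cells (16 tested), bile duct cells (7), dividing cells (27), red cells (10) and other tissues (10) had 0 past limma's threshold. At an unadjusted p under 0.05 they had 1, 2, 2, 2 and 0. The red cell list had a median of -0.36, with 7 of 10 below 0. Mki67, a marker of division, was at -1.14 (adjusted p = 0.393).

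Mif, which encodes macrophage migration inhibitory factor, fell with a small error and was chosen after its value was seen. It read 15729, 16840, 14819, 15785 and 18648 at 4 months and 8999.7, 9814, 7019.9, 7535 and 11300 at 22 months, without overlap. The difference was -0.89 log2 (SE 0.11, adjusted p = 2.66e-05), and the change differed from that of wild type by -0.68 (adjusted p = 0.0367), a call lost in 18 of 35 alternatives. Its other 2 probe sets were at 0.04 and 0.09 and did not pass. Over the 98 called genes with further probe sets, 168 of 206 further ones had the same sign and 37 passed with it. A further set, of Mindy1, passed with the opposite sign.

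The last comparison asked whether dwarf liver changed with age differently from wild-type liver. By that test, the rises of Igf1, Igfals, Mup10, Wfdc21 and Nat8 and the fall of Lpl were larger in dwarf. Of 15421 genes 60 passed it (0.389%), 40 with a more positive change in dwarf (0.259%) and 20 with a more negative one (0.13%). Wild type itself had 614 genes past the threshold (3.98%). Of the 185 dwarf genes 27 were among the 60, 23 of the risers and 4 of the fallers, though these 2 comparisons share the dwarf arrays. The difference was 4.16 log2 for Wfdc21 (adjusted p = 0.0356), 3.50 for Mup10 (adjusted p = 0.00504) and 2.91 for Nat8 (adjusted p = 0.0155). For Igfals it was 1.92 (adjusted p = 0.00504), for Igf1 1.65 (adjusted p = 0.0384) and for Lpl -2.40 (adjusted p = 0.038). In these 6 genes the wild-type change was small, between -0.33 for Nat8 and 0.03 for Wfdc21.

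Other leaders of that test had changed in wild type. Nkain4, a partner of the sodium pump, differed by 3.44 (adjusted p = 0.0175), with 1.35 in dwarf and -2.09 in wild type. Slc34a1, a phosphate transporter known from kidney, differed by 2.81, with 1.07 and -1.74. The orphan receptor gene Gpr37 differed by -3.59 (adjusted p = 0.00894), with -0.64 in dwarf and 2.96 in wild type. Ebi3, a cytokine subunit, differed by -2.53, and the nucleotide receptor gene P2ry6 by -2.38. Gm12758 (-2.83) and Tmem126b (-1.88), a complex I assembly factor, completed the list. In dwarf none of these 7 passed from 4 to 22 months, and in wild type all of them did (adjusted p from 5.26e-05 to 0.0207). The count of 60 depended on single arrays, and ran from 23 without wild type 22 months replicate 3 to 97 without wild type 22 months replicate 2. It was 26 and 31 without dwarf 22 months replicates 3 and 4, 29 without either of dwarf 4 months replicates 4 and 5, and 24 without wild type 22 months replicate 5. Without wild type 4 months replicates 1 and 5 it was 30 and 24. Without all 4 arrays of high Xist it was 67, and the difference was 4.99 for Wfdc21, 3.37 for Mup10, 2.17 for Igfals, 1.90 for Igf1 and -2.80 for Lpl, all past the threshold. Over 35 alternatives the difference missed the threshold in 0 for Mup10, Nat8 and Igfals, 15 for Wfdc21, 17 for Igf1 and 21 for Lpl, with adjusted p up to 0.1.

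Genes that changed in both genotypes moved the same way. Of the 87 dwarf risers 12 rose in wild type (13.8% of the dwarf risers, 4.05% of the 296 wild-type ones), and of the 98 fallers 21 fell (21.4%, and 6.6% of the 318 wild-type ones). Over all genes tested 1.92% rose and 2.06% fell in wild type, and 0.564% rose and 0.635% fell in dwarf. No gene passed in opposite directions. By sign alone, the wild-type change was positive for 54 of the 87 risers, where it was for 51.8% of all genes, and negative for 91 of the 98 fallers, where it was for 48.2%. Many fallers were bright, 29 among the 155 brightest genes and 30 among the next 617. The wild-type median of these 2 sets of bright genes was itself below 0, at -0.158 and -0.135. The share of negative signs among genes of like brightness was not counted. No array is used in both changes. Lcn2 is an example of a shared rise, 2.75 in dwarf and 3.82 in wild type, and so is Tifa, 2.21 and 2.14. The thiolase gene Acaa1b (-0.88 and -0.85) and Sod1 (-0.86 and -0.82) are shared falls. Across all genes the changes in dwarf and wild type had a Pearson r of 0.154 and a Spearman rho of 0.162, over genes that are not independent replicates.

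**Figure D5:**
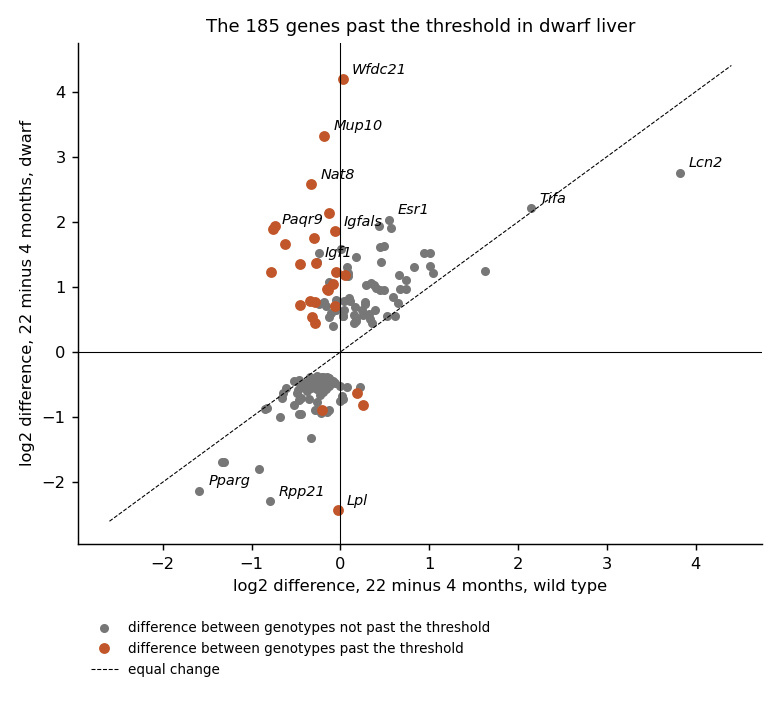
Log2 difference, 22 minus 4 months, in wild type (horizontal axis) and dwarf (vertical axis) for the 185 genes past the threshold in dwarf liver; orange points are the 27 genes whose change differed between genotypes past the threshold, and the dashed line marks equal change. Wfdc21, Mup10, Nat8 and Igfals lie high above 0 on the dwarf axis and near 0 on the wild-type axis, while Lcn2 (3.82 in wild type) and Tifa lie near the line or to its right.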

How the data were processed

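Liver RNA of 31 mice was measured on Affymetrix arrays. The deposited intensity values are linear MAS5 signals, as the submitters' processing notes name them, and the sources used here give no MAS5 version. The arrays had trimmed means of 494.6 to 496 and were scaled here to 500. Of 45037 probe sets, 34945 had a single gene symbol, 932 several and 9160 none. Probe sets above the 40th percentile on at least 5 arrays were kept (33908, of which 27302 named), and the brightest of each gene stood for it (15421 genes). log2(signal + 16) was fitted with limma 3.58.1 in R 4.3.3 over 6 groups (25 residual degrees of freedom, trended variance), with Benjamini-Hochberg adjustment over all genes. The script was tested on simulated data.

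The members and the 48 gene lists were chosen with earlier results of these data known. Named genes are the 12 largest rises and 12 largest falls past the threshold, the 6 largest differences between genotypes in each direction, and members of the lists. Genes outside this rule, the 10-month counts and the omission of arrays with high Xist were chosen after values were seen. Alternatives were scaling, pseudocount, filter, probe-set choice, variance model, array weights, a fit of only the groups compared and omission of each array. Promoters are from RefSeq. The labels agree on mouse liver in titles and source, while a free-text field names a fly tissue, which was not used. No pair of arrays held identical values. Wild-type arrays at 10 months entered the fit and the 10-month counts alone.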

Additional observations from a re-analysis of the deposited data

Results flagged for a closer look

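Among 48 groups of 5 arrays looked at, 2 held an array far from the other 4, where chance alone gives about 1 such group in 20. Lcn2 read 8998 in dwarf 22 months replicate 4, against 2179 to 3273 on the others. Igfals read 170.9 in dwarf 4 months replicate 2, against 306 to 374.

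The change from 4 to 22 months differed between dwarf and wild type, by limma's test of the difference itself, for the following named genes. The difference, dwarf minus wild type, was 4.16 log2 for Wfdc21, 3.50 for Mup10, 3.44 for Nkain4, 2.91 for Nat8 and 2.81 for Slc34a1. It was 2.67 for Lrp11, 2.65 for Paqr9, 2.26 for Olfm3 and 1.92 for Igfals. In the other direction it was -3.59 for Gpr37, -2.83 for Gm12758, -2.53 for Ebi3, -2.40 for Lpl, -2.38 for P2ry6 and -1.88 for Tmem126b. Without the 4 arrays of high Xist, P2ry6 (adjusted p = 0.0504), Olfm3 (adjusted p = 0.0528) and Slc34a1 (adjusted p = 0.0737) missed the threshold. Over the alternatives the difference was lost in 20 of 34 for Lrp11, 20 of 35 for Olfm3, 13 of 34 for P2ry6 and 12 of 34 for Slc34a1. For Ebi3 and Gm12758 it was lost in 7 and 5 of 34, and for Nkain4, Gpr37 and Tmem126b in 0 of 35.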

How the results depend on the processing

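The dwarf count of 185 became 290 with array weights, 314 with each probe set on its own, 119 without a variance trend and 61 with median centring, and 66 to 187 when each array was left out in turn. Of 24 named rises and falls, 14 to 21 stayed past the threshold on leaving out an array. The genotype-difference count of 60 became 37 with the mean of probe sets, 22 without a trend and 34 with quantile normalization, and 23 to 97 on leaving out an array. The wild-type count of 614 became 1370 with each probe set on its own, 1150 with median centring and 128 in a fit of only the groups compared, and 246 to 900 on leaving out an array. The cause was not tested. No named gene reversed. Of the 24, 11 passed under every alternative, as did 5 of 12 named for the genotype difference and 5 of 51 other called list members. The median over all genes was 0.002 log2, and -0.049 with median centring. No paired analysis was possible because each array is of another mouse and replicate numbers follow only the order of the arrays. Dim genes near background have only imprecise values.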
